A study of Mus musculus with 9 samples.

Results

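The genes of the mitochondrial ribosomal proteins were examined in mouse liver after fasting, after refeeding and across the day in constant darkness (DD). Members were all genes whose mouse symbol begins with Mrpl (large subunit) or Mrps (small subunit) followed by a digit. Of 20409 genes with a symbol in the count tables, 78 were members. By their place in the mammalian mitochondrial ribosome, 51 encode proteins of the large subunit, including Mrps30 and Mrps18a despite their names, and 26 encode proteins of the small subunit. The remaining member, Mrps36, encodes a protein now assigned to the 2-oxoglutarate dehydrogenase complex. All 78 passed the filter of a mean of at least 100 counts over the 9 libraries, as did 11001 genes in all.

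Livers of male C57BL/6J mice were pooled by condition, and 1 polyA+ library was sequenced for each of 9 conditions. Mice were fed ad libitum, fasted for 16 h (from ZT9 to ZT1, zeitgeber time counted from lights on), or given food again for 20 h following a 16-h fast. Mice of the remaining 6 libraries spent 6 weeks in DD after a light-dark cycle and were collected at circadian times (CT) 1, 5, 9, 13, 17 and 21. With 1 library per condition, no difference between feeding states has a replicate check and none was given a p-value. A fast ending at ZT1 followed by 20 h with food ends at ZT21, so the fasted and refed livers also differ in time of day if both fasts covered the same hours. The hour at which the ad libitum livers were taken was not found in the paper or the labels, and time of day and feeding cannot be told apart. The paper describes housing in a light-dark cycle and names DD only for the circadian series. Light regime and feeding therefore cannot be told apart where a feeding library is compared with DD libraries.

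The mitochondrial ribosome translates the few proteins that mitochondrial DNA encodes, all of them subunits of the respiratory chain and ATP synthase. Its RNAs are made in the organelle, whereas its proteins are encoded in the nucleus, made in the cytosol and imported. Many of the proteins descend from those of the bacterial ribosome, and most of the rest are found only in mitochondria. In liver, oxidation of fatty acids during fasting depends on this respiratory chain.

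Between 43485652 and 59624294 counts per library fell in named genes. Hepatocyte markers summed to between 43293 and 95643 CPM (counts scaled to a common library size by TMM, a method that assumes most genes do not differ) in the 9 libraries. The lowest was the ad libitum library, with 89330 CPM in the fasted and 73239 in the refed library. Alb made up most of these sums, with 32487 (ad libitum), 67973 (fasted) and 53010 CPM (refed). Apoa1, Ttr and Cps1 were also lower in the ad libitum than in the fasted and refed libraries. Serpina1c had 2362, 2362 and 3816 CPM in the same order. Cholangiocyte markers summed to 463 CPM in the ad libitum, 42.1 in the fasted and 79.7 in the refed library, of which Spp1 made up 446, 37.4 and 72.1 CPM. Sox9 was also highest in the ad libitum library (14.9, 1.95 and 2.54 CPM). Krt19 (0.99, 1.03 and 2.52 CPM) and Epcam (1.18, 1.72 and 2.48 CPM) were lowest there. Stellate cell markers summed to 299, 536 and 429.9 CPM, and erythroid markers to 379.7, 391 and 600.0 CPM, in the same order. Of the stellate markers, Dcn and Reln were highest in the fasted library. Lrat was highest in the refed (21.8, 41.2 and 85.3 CPM) and Des in the ad libitum library (7.94, 6.06 and 6.12 CPM). In 3 libraries the transcripts of the acute phase response, the liver's response to inflammation, stood apart. Of the ad libitum counts, 28.5% fell in a list of 30 such genes. In the CT1 library it was 18.8% and in the CT17 library 18.4%, whereas the remaining 6 libraries had 4.50% to 7.86%. All 8 neutrophil markers were measured, and their summed level was 54.1 CPM in the ad libitum library. It was 21.8 CPM in the CT1 and 36.3 CPM in the CT17 library, and 1.22 to 5.10 CPM elsewhere. The ad libitum library is the reference of 2 comparisons below, and the part of these signals in the results was not tested. Ratios to the mean of the 4 DD libraries other than CT1 and CT17, called the DD reference here, are therefore given for the members, their subunits and the gene lists. Light regime also differs between this reference and the feeding libraries.

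The sequences before the start sites of 6 members are shown, because these members were among those that differed most between libraries or, for Mrpl12, because of its role. They are RefSeq sequences of GRCm38.p6 with any bases of an annotated exon left out. Capitals mark a match to the motif of NRF1, a transcription factor of mitochondrial genes (GCGCANGCG on either strand), or of the ETS family (CCGGAAG on either strand).
Mrpl12, chr11:120484493-120484612, plus strand: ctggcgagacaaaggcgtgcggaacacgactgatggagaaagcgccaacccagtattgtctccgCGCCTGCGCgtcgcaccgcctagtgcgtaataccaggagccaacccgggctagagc
Mrpl17, chr7:105811100-105811219, minus strand: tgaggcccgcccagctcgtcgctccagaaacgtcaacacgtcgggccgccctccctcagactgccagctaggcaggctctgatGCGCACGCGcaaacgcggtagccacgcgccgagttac
Mrps27, chr13:99344706-99344785, plus strand: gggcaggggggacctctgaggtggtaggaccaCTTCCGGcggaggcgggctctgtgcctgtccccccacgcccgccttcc
Mrps12, chr7:28741822-28741941, minus strand: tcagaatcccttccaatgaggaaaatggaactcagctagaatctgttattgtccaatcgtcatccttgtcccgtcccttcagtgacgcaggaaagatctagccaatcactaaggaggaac
Mrpl42, chr10:95501950-95502069, minus strand: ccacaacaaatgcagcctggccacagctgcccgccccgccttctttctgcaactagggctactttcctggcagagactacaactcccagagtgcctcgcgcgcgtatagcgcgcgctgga
Mrps15, chr4:126046805-126046924, plus strand: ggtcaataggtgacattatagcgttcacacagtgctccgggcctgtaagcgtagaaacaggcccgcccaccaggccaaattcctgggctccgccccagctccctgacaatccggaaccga
Mrpl12, homologous to the stalk protein of the bacterial ribosome, and Mrpl17 carried an NRF1 motif in these stretches, and Mrps27, a small subunit protein found only in mitochondria, carried an ETS motif. The stretches of Mrps12, Mrpl42 and Mrps15 as printed carried no match to the NRF1, ETS or YY1 motif, but the longer windows described next held an ETS and a YY1 match for Mrps12 and a YY1 match for Mrpl42. A match is only a description of letters. RefSeq windows of 250 bases before and 50 after the start were available for 69 of the 78 members (75 windows). An NRF1 match lay in 21.3% of these windows, against 13.3% of 11372 windows of genes with a mean of at least 100 counts and 6.25% of all 32851 windows. ETS matches lay in 34.7%, against 17.5% and 8.86%. Matches to the motif of YY1 (AAGATGGC), a further factor of mitochondrial genes, lay in 16% against 4.55% and 2.75%. A window can hold more than 1 of these motifs, and 58.7% of member windows held at least 1, against 30.8% and 16%. TATA boxes (TATAAA) lay in 6.67% and E-boxes (CACGTG), bound by the clock proteins, in 9.33% of member windows, against 7.64% and 10.1% of the windows of expressed genes. Overlapping windows of the same gene were counted separately, and several of the 7 member windows with an E-box belong to Mrpl2. Members often lay head to head with another gene, since 18 of 78 (23.1%) had a protein-coding neighbour on the opposite strand whose start lay at most 500 bases upstream or at most 100 bases into the gene, against 6.61% of 21951 protein-coding genes. Mrpl46 and Mrps11, whose annotated starts overlap by 412 bases, fell outside this rule.

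Levels differed widely between members. Per library the 78 genes held 0.168% (ad libitum) to 0.250% (refed) of all counts. Mean levels over the 9 libraries ran from 4.99 CPM for Mrps6 to 79.8 CPM for Mrpl12. Per kilobase of transcript, the highest means were those of Mrps21 (86.1 CPM per kb), Mrpl52 (61.7), Mrpl12 (60.6), Mrps12 (43.4) and Mrpl34 (41.2). The lowest were those of Mrpl47 (2.15 CPM per kb), Mrpl19 (3.22), Mrps26 (3.32), Mrpl3 (3.37) and Mrpl48 (3.89). The annotated transcripts of the latter group are long (Mrpl19, 5000 bases), so levels per length depend on whether the liver uses the whole transcript, which was not tested.

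**Figure D1:**
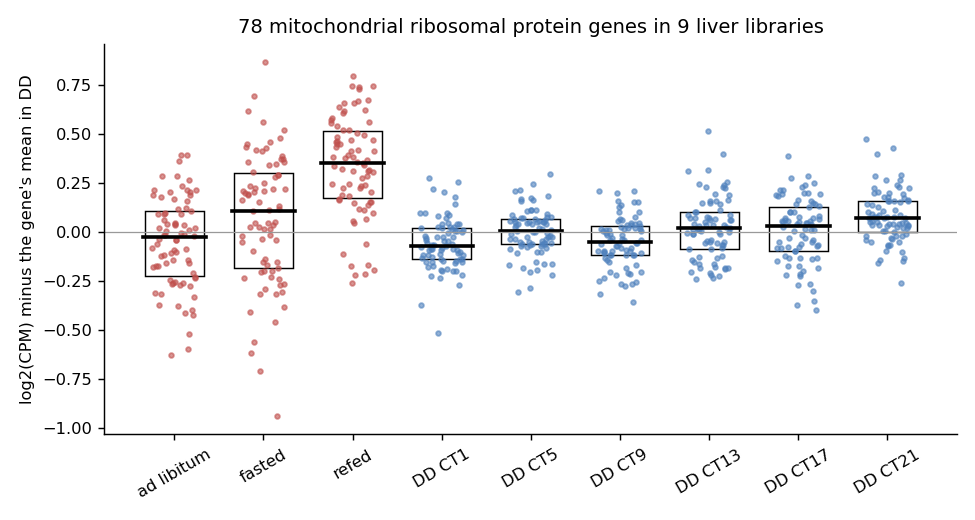
Level of each of the 78 members in each of the 9 libraries, as log2 CPM minus the gene's own mean over the 6 DD libraries; points are genes, bars medians and boxes the middle 50%. The refed median lies at 0.35, the ad libitum median at -0.03 and the DD medians between -0.07 and 0.07.

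After 16 h of fasting the members moved in both directions. On the log2 scale the median ratio of the fasted to the ad libitum library was 0.07, beside -0.09 for all genes with a mean of at least 100 counts. At least 1.5-fold higher were 12 members (15.4%) and at least 1.5-fold lower were 3 (3.85%), against 13.8% and 19.1% of all genes. The share of higher members was therefore near that of all genes. The lowest ratio was that of Mrps27, an RNA-binding protein of the small subunit, with 28.8 CPM in the ad libitum, 15.4 in the fasted and 32.2 in the refed library. The gene lies on the plus strand at chr13:99344786-99415562 (GRCm38) with 13 merged exons. The DD libraries held 19.1 to 28.8 CPM of Mrps27, so that the fasted value lay below all of them. Its log2 ratio to ad libitum was -0.90 (95% counting interval -1.04 to -0.77). Mrps12, which lies at the decoding centre, stood at 39.8 CPM in the ad libitum, 24.4 in the fasted and 35.7 in the refed library (log2 ratio of fasted to ad libitum -0.71, interval -0.81 to -0.60). Mrps36 and Mrps18b, 1 of 3 paralogs of a single bacterial protein, had log2 ratios of -0.60 and -0.47. The paralogs Mrps18a and Mrps18c stood at 0.03 and 0.37.

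The highest ratios of fasted to ad libitum belonged to Mrpl47, Mrps10, Mrps9 and Mrps35. Mrpl47, homologous to a bacterial large subunit protein, had 5.87 CPM with food ad libitum and 11.5 CPM after the fast (log2 ratio 0.97, interval 0.76 to 1.18). The DD libraries ran from 5.70 to 7.05 CPM of Mrpl47, below the fasted value. Mrps10 and Mrps9, homologous to bacterial small subunit proteins, had log2 ratios of 0.81 and 0.81, and Mrps35 had 0.77. For the first 2 of these the ad libitum value (12.8 CPM for Mrps10 and 11.6 for Mrps9) was itself below all 6 DD libraries, whose lowest were 14.9 and 13.7 CPM. With the mean of the 6 DD libraries as reference, 3 members in place of 12 were at least 1.5-fold higher (all genes 7.03%). With the DD reference the median was 0.11 (all genes -0.14), and 3 members were at least 1.5-fold higher and 4 lower (all genes 7.71% and 18.6%). Against that reference the log2 ratio was -0.62 for Mrps27, -0.27 for Mrps12, 0.80 for Mrpl47 and 0.16 for Mrps10. For Mrpl12 the ad libitum level was 61.1 CPM and the fasted level 99.4 CPM (log2 ratio 0.70). The DD libraries held 67.7 to 87.4 CPM of Mrpl12, above the ad libitum and below the fasted value. Against the DD reference its log2 ratio was 0.29. The neighbours of Mrpl12 at the stalk base, Mrpl10 and Mrpl11, had log2 ratios to ad libitum of -0.25 and 0.37, and to the DD reference of -0.28 and 0.20.

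**Figure D2:**
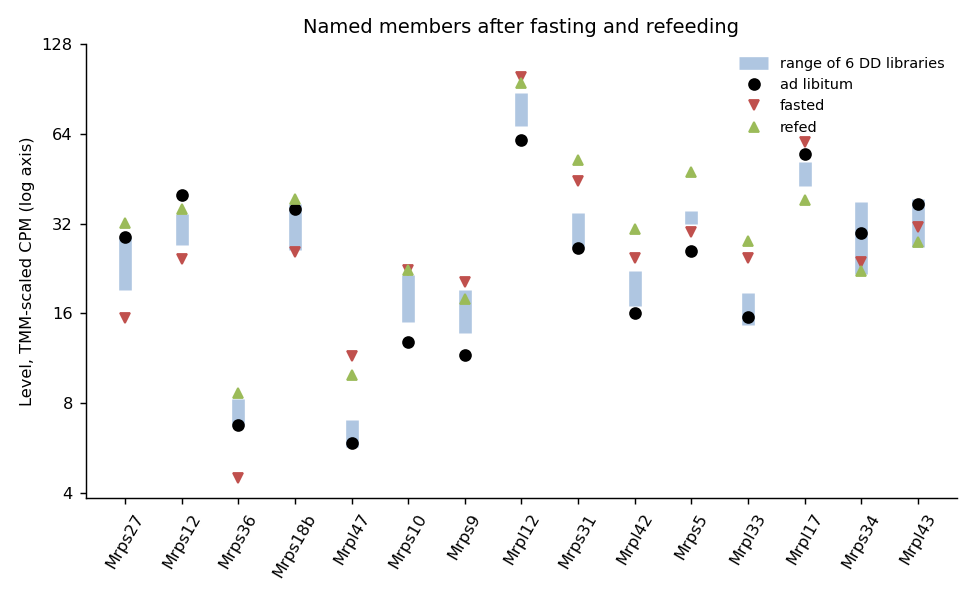
Levels of 15 named members in TMM-scaled CPM on a log axis; symbols are the ad libitum, fasted and refed libraries and bars span the lowest to the highest of 6 DD libraries. Mrps27, Mrps12, Mrps36, Mrps18b and Mrps5 lie below the DD range after fasting. Of these, Mrps36 and Mrps5 also lie below it in the ad libitum library. After refeeding Mrps9, Mrps34 and Mrpl43 lie within the DD range, Mrpl17 lies below it and all other members shown lie above it.

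After 20 h of refeeding the members stood higher. The median log2 ratio of the refed to the ad libitum library was 0.42 for members and -0.01 for all genes. Above 0 were 70 of 78 members (89.7%), against 48.9% of all genes. At least 1.5-fold higher were 24 members (30.8%), against 14.4% of all genes, and 0 members were at least 1.5-fold lower, against 13.8%. Mrps31, found only in mitochondria, had 26.5 CPM in the ad libitum, 44.6 in the fasted and 52.2 in the refed library. It lies at chr8:22411361-22429665 on the plus strand, with 7 merged exons. Its DD values were 26.8 to 34.8 CPM, below both of the latter libraries. The log2 ratio of refed to ad libitum was 0.98 (interval 0.88 to 1.07). Mrpl42 followed with 0.94 (15.98 to 30.65 CPM), Mrps5 with 0.88 (25.9 to 47.7 CPM) and Mrpl33 with 0.84 (15.6 to 27.9 CPM). Mrpl17 was the lowest member, with 54.6 CPM in the ad libitum, 60.2 in the fasted and 38.4 in the refed library. It lies at chr7:105803206-105811099 on the minus strand, with 2 merged exons. All 6 DD libraries exceeded the refed value (42.7 to 51.4 CPM), and the log2 ratio of refed to ad libitum was -0.51 (interval -0.59 to -0.42). Mrps34 and Mrpl43 stood at -0.43 and -0.43, and Mrpl4 at -0.21. With the mean of DD in place of ad libitum, the median of members was 0.34 and 13 members were at least 1.5-fold higher (all genes 5.02%). With the DD reference these were 0.36 and 15 (all genes 6.19%). Mrps31 then stood at 0.72, Mrpl42 at 0.67, Mrps5 at 0.48 and Mrpl17 at -0.19.

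The median log2 ratio of refed to ad libitum was 0.37 for the large and 0.45 for the small subunit, and 48 of 51 and 21 of 26 members lay above 0. Large subunit members listed as having a bacterial homolog had a median of 0.49 and those listed as particular to mitochondria 0.36. The corresponding medians in the small subunit were 0.47 and 0.14. Against the DD reference these medians were 0.41 and 0.35 in the large and 0.30 and 0.23 in the small subunit. The lists particular to mitochondria also held Mrps18a and Mrps18b, although their paralog Mrps18c was listed with a bacterial homolog. Mrpl44 and Mrpl58 were in these lists too. Relative to the DD reference the large subunit stood at 0.39 and the small subunit at 0.30 after refeeding, and at 0.17 and -0.03 after fasting. Fasted to ad libitum medians were 0.13 for the large and 0.06 for the small subunit. Of members chosen for their role, the log2 ratio of refed to ad libitum was 0.36 for Mrpl45 (the anchor to the inner membrane), 0.37 for Mrpl58 (a peptidyl-tRNA hydrolase), 0.58 for Mrpl39 and 0.06 for Mrpl44 (related to RNase III). For Mrpl3 this ratio was 0.34, for Mrps30 0.21 and for Mrps18a 0.41.

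Transcript length moved with these ratios. Of the 78 members, 52 belonged to the shortest of 5 length bins of equal size (up to 1716 bases). The median log2 ratio of refed to ad libitum of all genes was 0.24 in the shortest bin and 0.04, -0.05, -0.08 and -0.16 in the longer ones. In the shortest bin the 52 members had a median of 0.40. In the following bins the 7, 9 and 7 members had medians of 0.35, 0.49 and 0.55, and the 3 members in the longest bin -0.18. After centring of every gene within its bin, the member median was 0.23 and 12 members were at least 1.5-fold higher and 2 lower (all genes 13% and 13.6%). Relative to the DD reference the shortest bin had a median of 0.22 for all genes and 0.36 for the 52 members. The part of length in the result was not tested.

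The refed and the fasted library were also compared directly. Members had a median log2 ratio of 0.26, and all genes 0.08. At least 1.5-fold higher in the refed library were 12 members (15.4%, all genes 14.5%), and Mrpl17 alone was at least 1.5-fold lower (1.28%, all genes 8.44%). The highest was Mrps27 (1.07, interval 0.93 to 1.20), followed by Mrps36 (0.95), Mrps15 (0.88) and Mrpl38 (0.79). Mrps15, homologous to a bacterial small subunit protein, stood at 4.89 CPM in the fasted library, below all 6 DD libraries (7.83 to 12.4 CPM). Its ad libitum value (6.20 CPM) was below them too. The lowest after Mrpl17 (-0.65) were Mrps26 (-0.32), Mrps35 (-0.22) and Mrpl47 (-0.21). The count of higher members was 6 under DESeq2 size factors (all genes 12.5%).

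Each feeding library was also set against the range of the 6 DD libraries. Above all 6 DD libraries were 55 members in the refed (70.5%, all genes 23.6%), 32 in the fasted (41.0%, all genes 19.8%) and 12 in the ad libitum library (15.4%, all genes 21%). Below all 6 were 2 members in the refed (2.56%, all genes 22.4%), 18 in the fasted (23.1%, all genes 32.4%) and 24 in the ad libitum library (30.8%, all genes 22.8%). The 2 members below in the refed library were Mrpl17 and Mrps25. With CT1 and CT17 left out, 55 members were above and 3 below in the refed library (all genes 30.5% and 33.3%). Scaled by total counts, 0 members were above and 48 below in the ad libitum library (all genes 7.63% and 41%), and 21 were above in the fasted library (all genes 16%). Above all 6 DD libraries in the refed library were also 69.0% of nuclear respiratory chain genes, 62.4% of cytosolic ribosomal protein genes and 39.4% of all genes in the shortest length bin.

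**Figure D3:**
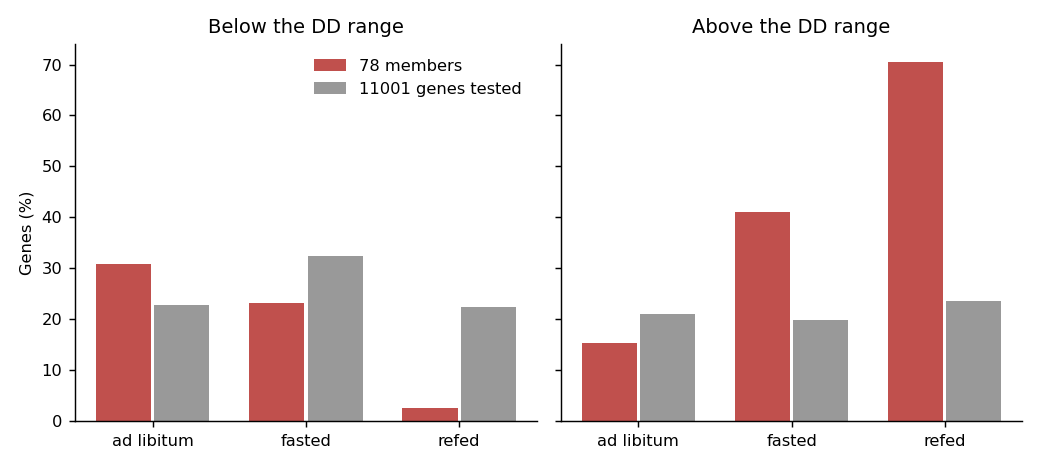
Share of genes (%) whose level in the ad libitum, fasted or refed library was below (left) or above (right) that in all 6 DD libraries, for the 78 members and for the 11001 genes tested. Above the range in the refed library were 70.5% of members and 23.6% of genes.

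Within DD the range of most members was narrower than that of the median gene. The median log2 ratio of the highest to the lowest DD library was 0.38 for members and 0.58 for all genes. At least 1.5-fold were 10 members (12.8%), against 49.8% of all genes, and at least 2-fold were 0 members, against 18.2%. The median SD over the 6 libraries was 0.14 on the log2 scale for members and 0.22 for all genes, and counting error alone gave members 0.04. The widest range was that of Mrps6, homologous to a bacterial small subunit protein, with 3.56 CPM at CT1, 3.89 at CT9, 4.35 at CT5 and 4.36 at CT17. It was highest at CT13 (5.72 CPM) and CT21 (6.40 CPM). Its log2 ratio of highest to lowest was 0.84 (interval 0.59 to 1.10). Mrps34 (0.80), Mrpl14 (0.74), Mrpl44 (0.70) and Mrps2 (0.69) followed. Mrps34, Mrpl14 and Mrps2 were highest at CT13, and Mrpl44 at CT21. Mrpl10 was the most even, with 37.1 to 39.8 CPM (log2 ratio 0.10). The highest library was CT17 for 24 members, CT21 for 24, CT13 for 15, CT5 for 7, CT1 for 5 and CT9 for 3. For all genes the shares were 18.7%, 18.4%, 22.5%, 13.4%, 11.2% and 15.9%. Without CT1 and CT17 the members' median ratio of highest to lowest was 0.25 and 5 members were at least 1.5-fold (all genes 27%). Without CT21 alone, 6 members were at least 1.5-fold (the share of all genes is not given here). Cytosolic ribosomal protein genes had a median of 0.42, with 15.3% at least 1.5-fold over all 6 libraries, and respiratory chain genes 0.44 and 23.0%.

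**Figure D4:**
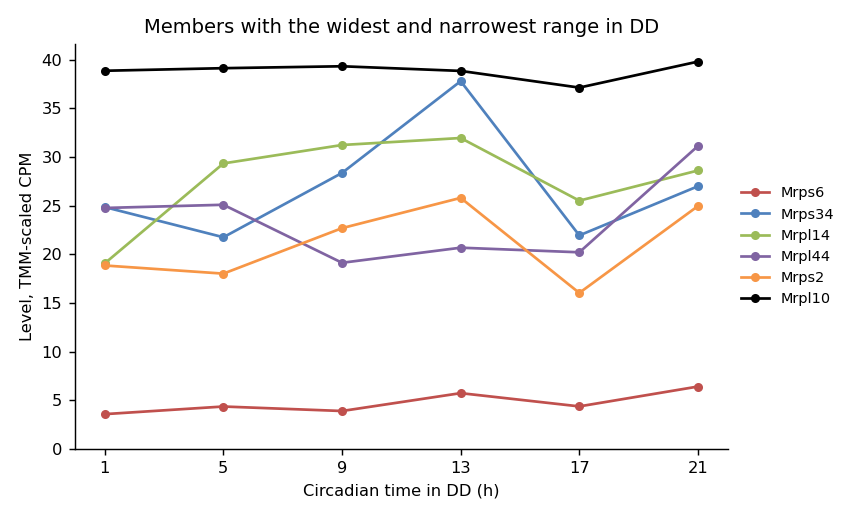
Level in TMM-scaled CPM at 6 circadian times in DD for the 5 members with the widest range and for Mrpl10, the member with the narrowest; each point is 1 library. Mrps34 reached 37.8 CPM at CT13, and Mrpl10 stayed between 37.1 and 39.8 CPM.

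Rhythm with a period of 24 h was tested by fitting a cosine and a sine term in edgeR (quasi-likelihood F test). At an adjusted p of 0.05, 0 of 78 members and 0 of 14021 genes were called (0%). At an unadjusted p under 0.05 there was 1 member, beside 1286 genes (9.17%). DESeq2 called 377 of 14021 genes and 0 of 78 members, and limma-voom 0 genes. The smallest p was that of Mrps18b, with a log2 amplitude of 0.26, a fitted peak at 23.2 h and an unadjusted p of 0.0315 (edgeR, adjusted p = 0.50). Mrpl44, Mrpl36, Mrpl34 and Mrps15 had unadjusted p-values of 0.0527 to 0.0639 in the edgeR fit (adjusted p = 0.55 to 0.56). The cosine equation of the study, fitted by least squares, gave 5 of 78 members and 688 of 14021 genes (4.91%) at an unadjusted p under 0.05 by an exact permutation test, whose smallest possible p is 0.0167.

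Members with a neighbour that shares their start region were set beside that gene. Mrps12 and Sars2, the mitochondrial seryl-tRNA synthetase, start 172 bases apart and had log2 ratios of fasted to ad libitum of -0.71 and -0.76. Mrpl32 and Psma2, a proteasome subunit, start 75 bases apart and had 0.71 and 0.71. Other pairs differed, for instance Mrps18b (-0.47) and Ppp1r10 (0.17), and Mrpl40 (0.46) and Hira (-0.34). Exons of 33 of the 78 members overlap those of another annotated gene, 28 of them on the opposite strand. Mrpl47 shares 616 bases with Ndufb5, a respiratory chain gene with a log2 ratio of fasted to ad libitum of 0.91, and 452 bases with Actl6a (-0.26). Mrps27 overlaps the antisense gene 6430562O15Rik by 506 bases, Mrps25 overlaps Nr2c2 by 4590, Mrpl43 overlaps Twnk by 507, and Mrps34 overlaps Mapk8ip3 by 1309 and Nme3, on its own strand, by 763. Mrpl46 and Mrps11 share 173 bases. Of the 45 members without such an overlap, the median log2 ratio was 0.14 for fasted and 0.47 for refed to ad libitum. Whether strand was used in counting is not stated, so reads of such pairs may not be told apart.

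Other genes of mitochondrial translation, and a list around expression of mitochondrial DNA, were examined as lists. The 5 mitochondrial ribosomal proteins with other symbols had a median log2 ratio of refed to ad libitum of 0.74, with Ptcd3 at 1.05 and Gadd45gip1 at 0.03, and 0.42 relative to the DD reference. After fasting Dap3 (-0.41) and Gadd45gip1 (-0.30) were lowest and Ptcd3 (0.63) and Chchd1 (0.50) highest. The 20 genes of mitochondrial aminoacyl-tRNA synthesis had a median of -0.20 after fasting and 0.25 after refeeding, both relative to ad libitum. Of these, 7 (35%) were at least 1.5-fold lower after fasting (all genes 19.1%). Cars2 (-0.96) and Tars2 (-0.87) were lowest, and Gatb (0.31) and Nars2 (0.16) highest. Refed to fasted their median was 0.68 (all genes 0.08), and 13 of 20 were at least 1.5-fold higher (all genes 14.5%). Relative to the DD reference their medians were -0.46 after fasting and 0.19 after refeeding. The 13 translation factors stood at 0.21 and 0.43 relative to ad libitum, with Tsfm (-0.72) and Tufm (-0.60), both elongation factors, lowest after fasting, and Mtif3 (0.68) and Mtif2 (0.44), both initiation factors, highest. Relative to the DD reference they stood at -0.09 and 0.28. The 26 assembly factors stood at 0.02 and 0.33 relative to ad libitum, and at -0.07 and 0.21 relative to the DD reference. Mettl17, an assembly factor of the small subunit (-0.99), and Ddx28 (-0.78) were lowest after fasting, and Gtpbp10, of the large subunit (0.93), and Fastkd2 (0.79) highest. The list around expression of mitochondrial DNA held 21 genes. Besides the expression machinery it included regulators of nuclear genes (Nrf1, Gabpa, Gabpb1, Yy1, Myc, Esrra, Ppargc1a and Ppargc1b) and genes of mitochondrial DNA replication (Polg and Twnk). Of the 21 genes, 7 were at least 1.5-fold higher after fasting (33.3%, all genes 13.8%), among them Esrra, Ppargc1a and Ppargc1b. The highest were Hsd17b10 (2.37), a subunit of mitochondrial RNase P, and Ppargc1a (1.84), a coactivator induced by fasting. The lowest were Twnk (-0.46), the helicase of mitochondrial DNA, and Polrmt (-0.42), its RNA polymerase. The medians of these 21 genes were 0.32 for fasted and 0.20 for refed to ad libitum, and -0.35 for refed to fasted, with 6 of 21 above 0. Relative to the DD reference they were 0.10 and -0.11. By that reference 3 of the 21 genes were at least 1.5-fold higher after fasting (14.3%, all genes 7.71%). At least 1.5-fold lower were 2 (9.52%, all genes 18.6%).

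For comparison, the 85 cytosolic ribosomal protein genes had a median log2 ratio to ad libitum of 0.18 in the fasted and 0.38 in the refed library, where 82 of 85 lay above 0. The 87 nuclear genes of the respiratory chain stood at 0.64 and 0.80. Both lists were chosen by symbol. The respiratory chain list also holds ATP synthase genes and the assembly factors Cox10, Cox11, Cox14, Cox15, Cox16, Cox17, Cox18, Cox19 and Cox20. The cytosolic list also holds Rps19bp1, which is not a ribosomal protein, and both Rps27 and Rps27rt, whose values were identical. At least 1.5-fold higher after fasting were 48 of 87 (55.2%), against 12 of 78 members and 13.8% of all genes. Relative to the DD reference the respiratory chain genes stood at 0.14 and 0.32, with 3 of 87 at least 1.5-fold higher after fasting, and the cytosolic ribosomal protein genes at 0.19 and 0.35. Of the respiratory chain genes, 73 were below all 6 DD libraries in the ad libitum library (83.9%, all genes 22.8%), and relative to the DD mean their medians were -0.46 (ad libitum), 0.19 (fasted) and 0.37 (refed), beside -0.03, 0.11 and 0.35 for members.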

How the data were processed

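Total liver RNA of pooled mice was made into polyA+ libraries. Mapping to GRCm38/mm10 was done by the authors, with TopHat2 2.0.13 per the submitters' processing notes, and they deposited whole-number read counts for 27457 RefSeq transcripts per library. The counting program is not given in the sources used here. Transcripts were named from RefSeq GRCm38.p6 (26390) and GENCODE M21 (115), and 952 without a name (0.346% to 0.817% of counts) were left out. For each gene the transcript with the most counts was kept. Places and exon overlaps are from GENCODE M21.

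Libraries were scaled by TMM (edgeR 4.0.16, R 4.3.3). Conditions were compared as log2 ratios with exact 95% counting intervals, which cover counting error only, and members were set beside all genes with a mean of at least 100 counts. A 1.5-fold difference was a size rule, not a test. Rhythm was tested over the 6 DD libraries with edgeR's quasi-likelihood F test (filterByExpr, minimum count 10, Benjamini-Hochberg adjustment at 0.05), and with DESeq2 1.42.0, limma 3.58.1 and a permutation test (exact, over all 720 library orders) of a least squares cosine as alternatives. The edgeR test was run on simulated data of 13842 genes, where it called 6.12% of waves with a log2 amplitude of 0.5, 49.0% at 1, 80% at 1.5, 94% at 2 and 0.147% of unchanged genes. The spread in this simulation was that about the fitted cosine, so that the shares may not carry over to the libraries. Figures were drawn with matplotlib 3.10.9, and intervals were computed with scipy 1.17.1 in Python 3.11.15 (pandas 2.3.3, numpy 2.4.6).

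The members and lists were chosen with earlier results of these data known. Named members are the 4 highest and 4 lowest of each comparison, the 5 smallest rhythm p, the 5 widest ranges in DD, the 5 highest and lowest levels per length and some chosen for their role. Of the lists of mitochondrial translation and mitochondrial DNA expression, values are given for the 2 highest and 2 lowest after fasting. The same extremes of the cytosolic ribosomal and respiratory chain lists are not printed. The NRF1 motif was shortened by 1 base at its end after the shares for the longer motif had been counted. The promoters shown and the gene pairs named were chosen after their values were seen.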

Additional observations from a re-analysis of the deposited data

Results flagged for a closer look

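The 6 DD libraries were examined for a single library far from the other 5, for each of the 78 members and for their sum (79 in all, 1 library per time). In 4 of 79 this was so, and chance alone gives about 1 in 20. Mrpl17 was highest at CT1 (51.4 CPM, the nearest library 44.7), Mrpl24 highest at CT17 (48.0, nearest 42.3), Mrps30 highest at CT21 (20.9, nearest 17.2) and Mrpl10 lowest at CT17 (37.1, nearest 38.9). Acute phase genes held 18.8% of counts at CT1, 18.4% at CT17 and 5.36% at CT21.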

How the results depend on the processing

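With TMM, scaling left the median log2 ratio of all genes at -0.09 (fasted to ad libitum) and -0.01 (refed to ad libitum). Total counts moved these to 0.09 and 0.19. The members' medians moved with them, to 0.26 and 0.62. Then 1 member was at least 1.5-fold lower after fasting and 41 higher after refeeding (all genes 13% and 23.1%). Against the DD range total counts placed 0 (above) and 48 (below) members in the ad libitum library (all genes 7.63% and 41%). In the fasted library 21 were above (all genes 16%). Within DD 18 members were at least 1.5-fold (all genes 60.2%). An unadjusted rhythm p under 0.05 (edgeR) was held by 0 members and 921 of 14021 genes. Without scaling the fasted median changed sign, to -0.17, with 1 member higher and 9 lower (all genes 8.36% and 32.3%). The refed median was 0.31, with 14 higher and 1 lower (all genes 11.4% and 18.4%). Refed to fasted it was 0.41, with 21 and 0 (all genes 20.6% and 6.1%). In the same setting 2 members were above the DD range in the ad libitum library (all genes 13.8%). In the fasted library 4 were above and 28 below (all genes 6.65% and 50.2%). In the refed library 36 were above and 5 below (all genes 9.5% and 27.6%). The DD median was 0.60, with 41 members at least 1.5-fold (all genes 71.5%). DESeq2 size factors gave a fasted median of 0.13, and 6 members higher in refed than fasted (all genes 12.5%). TMM without acute phase genes also gave 6 (all genes 12.8%). Counting every transcript gave 0.13 after fasting. CT1 in place of ad libitum gave 0.15 with 6 members higher after fasting (all genes 12.1%). The mean of DD gave 3 higher after fasting (all genes 7.03%), and 0.34 with 13 after refeeding (all genes 5.02%). Leaving out each DD library in turn gave 0.32 to 0.37 for the DD median and 6 (without CT21) to 9 members at least 1.5-fold. The shares of all genes for these counts are not given here. In the same runs 0 to 5 members had an unadjusted rhythm p under 0.05 in the edgeR fit. The 5 came without CT17, where 2224 of 13810 genes had such a p. The least squares cosine with its exact permutation test gave 5 members (all genes 4.91%).

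Further alternatives were chosen after seeing the data. The mean of DD without CT1 and CT17 gave 3 higher after fasting (all genes 7.71%), and 0.36 with 15 after refeeding (all genes 6.19%). Centring within 5 bins of length gave 0.015, 7 higher and 5 lower after fasting (all genes 13.2% and 19%). After refeeding it gave 0.23, 12 higher and 2 lower (all genes 13% and 13.6%). Without CT1 and CT17 the DD median was 0.25 with 5 members at least 1.5-fold (all genes 27%). With members without exon overlap the fasted median was 0.14. Leaving out 1 DD library changed the counts outside the DD range by no more than 6. The cause of these changes was not tested. Of 52 single ratios past 1.5-fold, 0 changed sign under another scaling and 30 fell under 1.5-fold in at least 1. With 1 library per condition, differences between mice cannot be separated from those between conditions. No paired analysis was possible because each group holds 1 library.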
